A study of Selaginella moellendorffii with 8 samples.

Results

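In Selaginella moellendorffii, a lycophyte, 27 of 25004 gene models stood in the shoot tip far above the leaf and also above the root and the rhizophore. They were chosen from levels in CPM (counts per 1000000 counted reads, scaled by the TMM method, which allows for a few abundant models taking much of a library). A model had to reach 5 CPM in both shoot libraries, its lower shoot value had to be at least 4 times the higher leaf value, and it had to be at least 2 times the highest of the 4 root and rhizophore values. Up to 100 models would have been kept and 27 qualified, so none was left out. The choice used all 8 libraries. Levels of shoot against any other organ are therefore given as a description, without a test.

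The lycophyte shoot grows from an apical meristem at its tip, which lays down the stem and the small, single-veined leaves called microphylls. A shoot tip holds this meristem together with leaf primordia, young stem and young leaves, whereas an expanded microphyll is chiefly a photosynthetic organ. The rhizophore is a leafless axis that grows from an angle meristem at a stem branch point and later bears roots. Bulk RNA of a tip mixes these tissues, and fewer cells of a type and less RNA per cell cannot be told apart in it.

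The study sequenced untreated plants grown from stem cuttings, with 2 libraries from each of 4 organs and 40 excised pieces pooled per library. The shoot libraries came from the most distal part of green young shoots that already bore microphylls, 10 to 20 days after they branched off. The leaf libraries held whole microphylls of 10 to 14 days, and the root libraries held ventral angle meristem outgrowths of 10 to 20 days and 5 to 10 cm with a root cap and root hairs. The rhizophore libraries held such outgrowths of 4 to 7 days and 2.5 to 3.5 cm without cap, hairs, green colour or microphylls. The labels give no genotype and do not state whether the repeats of an organ were taken from different plants. The spread that p-values measure is that between these libraries and may be technical. Organ and age differ together in comparisons with the rhizophore and cannot be told apart. The age range of leaf (10 to 14 days) is also narrower than that of shoot and root (10 to 20 days). Root and rhizophore pieces differ in length as well.

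Total counts ranged from 2826533 in leaf replicate 1 to 27891111 in root replicate 2. The smallest count above 0 in the table was 5, so a model listed at 0 may hide up to 4 reads, and 5 counts corresponded to 2.15 CPM in leaf replicate 1 and to 0.103 to 0.519 CPM in the other 7 libraries. None of the 25004 model names matched the reference gene table, so no model is given a gene name, a function or a place in the genome, and the organ labels could not be checked against marker genes. Of the 27 models, 23 had numeric names and 4 had names starting with Smoe, as had 2719 (10.9%) of all models. The library labelled rhizophore replicate 2 was treated differently in the authors' deposited averages, where their Root average took 49.9% of its weight from it and their Rhizophore average took 99.2% from rhizophore replicate 1. Membership in the 27 rests on 1 maximum over root and rhizophore together, so it does not depend on that label.

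The leaf, not the root or rhizophore, kept the group small. Of 12090 models at 5 CPM or more in both shoot libraries, 1223 (10.1%) were at least 2 times above root and rhizophore, but only 37 (0.306%) were at least 4 times above leaf, and 27 met both conditions. The mirror choice, with leaf in the place of shoot, found 2 models. The lower shoot value lay between 0.5 and 2 times the higher leaf value in 98.1% of the 12090 models, and between 0.5 and 2 times the highest root or rhizophore value in 50.4%. The member nearest to the leaf limit was Smoe_00024382, with a ratio of 4.28, and the nearest model outside it was 407519.v1, with 4.00 after rounding (70.0 CPM in the lower shoot and 17.5 CPM in the higher leaf library). At the root and rhizophore limit, 405683.v1 was inside with a ratio of 2.08 and 413971.v1 outside with 1.97. At the level minimum, the lowest member, 124285.v1, stood at 7.47 CPM in its lower shoot library. The nearest model under the minimum that met both ratios, 96309.v1, stood at 3.32 CPM. A minimum raised to 10 CPM kept 26 of the 27, and how many models a lower minimum would add was not counted.

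**Figure D1:**
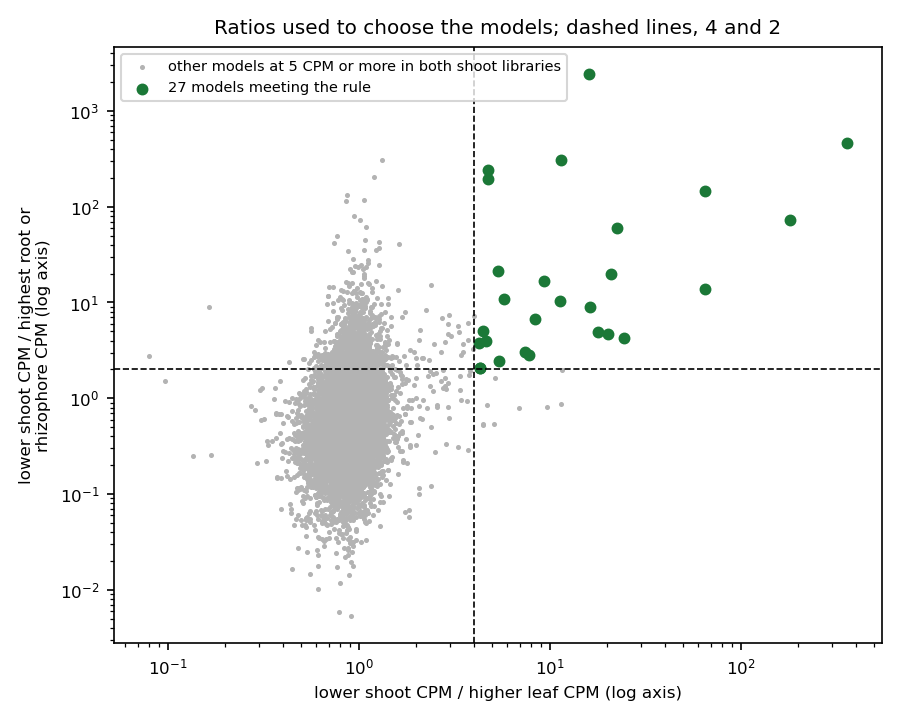
Each point is a gene model at 5 CPM or more in both shoot libraries (12089 drawn; 1 with a denominator of 0 is not), with the lower shoot value divided by the higher leaf value on the horizontal log axis and by the highest root or rhizophore value on the vertical log axis. The 27 chosen models (green) lie to the right of the dashed line at 4 and above the dashed line at 2, apart from the main cloud around a shoot to leaf ratio of 1.

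The chosen models held a larger share of the counts in shoot than in any other organ. Together they took 6.55% of all counts in shoot replicate 1 and 5.87% in replicate 2, against 0.464% and 0.776% in leaf, 0.0689% and 0.0872% in root, and 0.0479% and 0.0755% in rhizophore. By Wilson's method the 95% interval was 6.54% to 6.56% for shoot replicate 1 and 5.86% to 5.88% for replicate 2, for counting error only. The 6 members with the highest mean in shoot held 87.7% of the member counts in shoot replicate 1 and 94.7% in replicate 2. The members 96266.v1 and Smoe_00016546, between which reads may be shared, each took 1.24% of all counts in shoot replicate 1 and 1.26% in replicate 2. Mean shoot levels ran from 7.49 CPM to 20910.4 CPM. Of the 127 models with a mean of at least 1000 CPM in shoot, 8 (6.30%) were members, against 7 of 1593 between 100 and 1000 CPM, 11 of 8082 between 10 and 100 CPM and 1 of 15202 under 10 CPM. The level minimum of the choice removes most models of the last class. The choice used the same shoot values in all classes, so these shares describe the choice and were not tested. Of the 10 models with the highest mean in shoot, 4 belonged to the group, 96266.v1 and Smoe_00016546 among them.

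**Figure D2:**
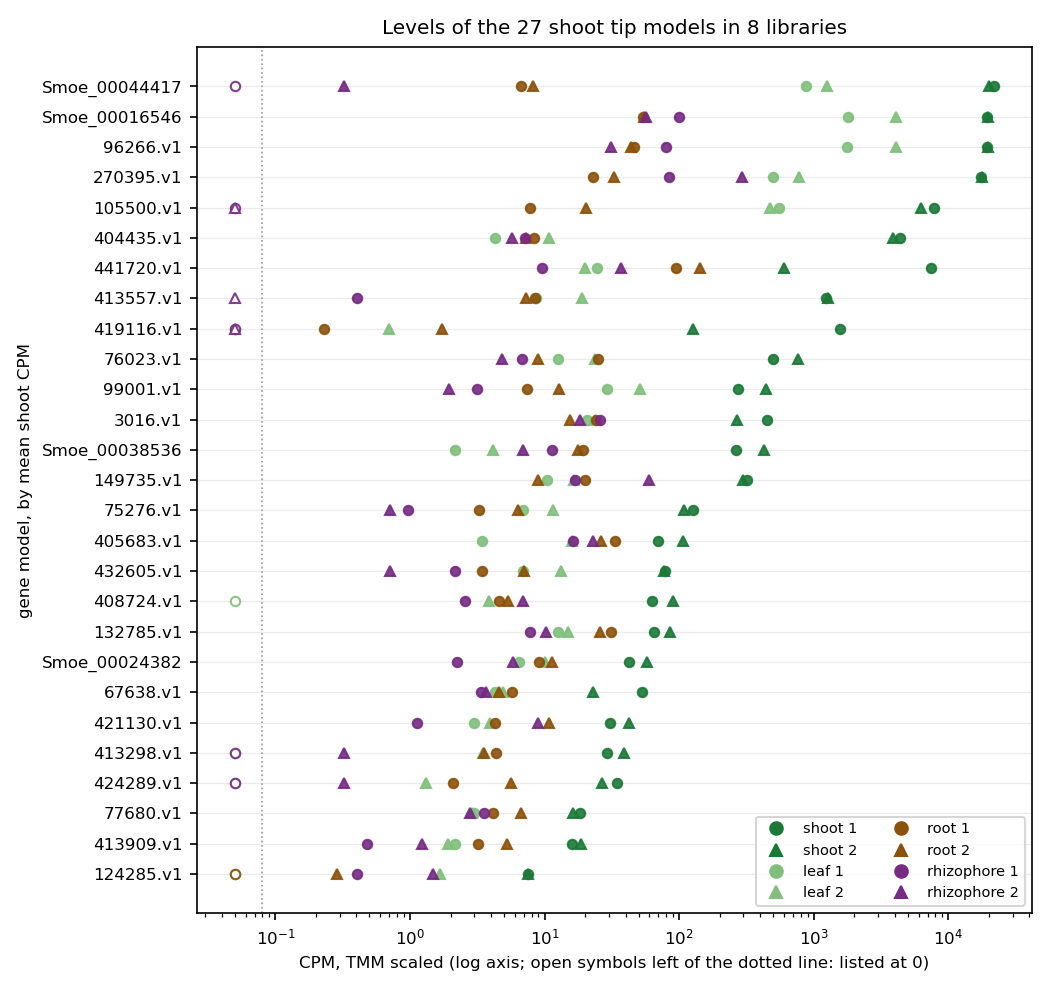
The 27 models, ordered by mean shoot level, with 1 symbol per library on a log axis of TMM-scaled CPM; circles are replicate 1, triangles replicate 2, and open symbols left of the dotted line are libraries that list the model at 0. The shoot symbols lie to the right of all others in each row, by the choice of the models, while the order of leaf, root and rhizophore changes from row to row.

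Among the most abundant members, the levels outside the shoot differed by orders of magnitude. Smoe_00044417 had the highest mean. It stood at 21843 and 19978 CPM in the shoot libraries, 883 and 1245 in leaf, 6.67 and 8.25 in root, and 0 and 0.324 in rhizophore. Its leaf level was thus far above its root and rhizophore levels. The model 105500.v1 had the same order, with 7841 and 6287 CPM in shoot, 551 and 473 in leaf, 7.84 and 20.4 in root and a listing at 0 in both rhizophore libraries. These 2 models were each other's nearest profile among all 25004, although they still lay 1.67 apart on the log2(CPM + 1) scale in the library where they differed most. The model 270395.v1 was at 17403 and 17799 CPM in the shoot libraries and at 496 and 774 CPM in those of leaf, but it had more signal in rhizophore, 84.3 and 293 CPM, than in root, 23.0 and 32.6 CPM.

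A second pattern was a high shoot level with at most 18.8 CPM in each other library. The model 404435.v1 had the widest gap: 4389 and 3882 CPM in shoot, against 4.31 and 10.8 in leaf, 8.34 and 7.30 in root, and 7.15 and 5.70 in rhizophore. Its lower shoot value was 360 times its higher leaf value and 465 times its highest root or rhizophore value. Its leaf values lay on either side of all its root and rhizophore values. The model 413557.v1 stood at 1227 and 1280 CPM in shoot and at 8.61 and 18.8 in leaf, with 8.50 and 7.24 in root and 0.402 and 0 in rhizophore. In 3 members, 404435.v1, 413557.v1 and 419116.v1, the lower shoot value exceeded each of the 6 other libraries by at least 50 times.

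The levels of the members 96266.v1 and Smoe_00016546 are uncertain, because their counts were nearly equal in shoot and leaf and reads may be shared between them. In the shoot libraries they held 187424 and 192763 counts and 187556 and 192902 counts respectively, a difference of 0.0704% and 0.0721%. In leaf they differed by 0.534% and 0.395%. The difference grew where the signal was low, to 17.3% and 25.6% in root and to 25.4% and 83.2% in rhizophore, with the higher count in Smoe_00016546 in all 8 libraries. The sources used here do not give how reads matching several models were counted. None of the 27 members had a partner within 0.1 log2 of its counts in all 8 libraries. This pair also stood highest in leaf, at 1773 and 4077 CPM for 96266.v1, where the replicates of leaf differed more than those of shoot, at 19442 and 19852 CPM.

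The moderately expressed members fell between 100 and 1000 CPM. At 500 and 769 CPM in shoot, 76023.v1 stood at 12.5 and 23.8 CPM in leaf, 25.0 and 8.87 in root, and 6.83 and 4.86 in those of the rhizophore. The model 3016.v1 stood at 448 and 268 CPM in shoot and between 15.4 and 25.9 CPM in the other 6 libraries, with overlap between leaf, root and rhizophore. By contrast, Smoe_00038536 had its lowest values in leaf: 2.15 and 4.12 CPM, against 19.4 and 17.6 in root, 11.4 and 6.93 in rhizophore, and 266 and 426 in shoot. The model 99001.v1 ran the other way among those organs, with 29.3 and 50.7 CPM in leaf, 7.46 and 12.9 in root and 3.13 and 1.94 in rhizophore, below 273 and 445 in shoot. The model 149735.v1 stood at 322 and 297 CPM in shoot and had its next highest value, 59.9 CPM, in the disputed rhizophore library, against 17.0 CPM in rhizophore replicate 1, 10.3 and 16.6 CPM in leaf and 20.0 and 8.89 CPM in root.

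Some members below 100 CPM in shoot rest on few counts in leaf. The model 408724.v1, at 62.3 and 89.4 CPM in shoot, was listed at 0 in leaf replicate 1 and held 44 counts, or 3.86 CPM, in leaf replicate 2. The model 413298.v1, at 29.3 and 39.0 CPM in shoot, was likewise at 0 in leaf replicate 1 and at 3.51 CPM in leaf replicate 2. Leaf replicate 1 listed 5 of the 27 members at 0, against 0 in leaf replicate 2. Of the 27 members, 23 stood higher in leaf replicate 2 and 4 in leaf replicate 1. The same count over all models was not made. Setting each value listed at 0 outside the shoot to 4 counts, the most such a listing can hide, left the same 27 models (an alternative added after the data were seen). Rhizophore replicate 1 listed 5 members at 0, rhizophore replicate 2 listed 3 and root replicate 1 listed 1.

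A further 7 members with shoot means between 10 and 100 CPM were nearer to the limits of the choice. The model 405683.v1 stood at 69.4 and 108 CPM in shoot, 3.44 and 16.0 in leaf, 33.4 and 26.0 in root, and 16.2 and 22.9 in the rhizophore libraries. Likewise 132785.v1 was at 64.5 and 85.6 CPM in shoot and had 31.0 and 25.7 CPM in root, above its leaf values of 12.5 and 15.0 and its rhizophore values of 7.79 and 10.2. In both, root was the organ closest to shoot. Smoe_00024382 stood at 42.7 and 57.8 CPM in shoot, with 6.46 and 9.99 in leaf, 9.13 and 11.4 in root and 2.25 and 5.83 CPM in the rhizophore.

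The shoot libraries of 67638.v1 differed more than those of the other low members, at 53.1 and 22.8 CPM, over 3.37 to 5.73 CPM in the 6 libraries of the other organs. In 421130.v1 the shoot values of 30.6 and 42.2 CPM stood over 3.01 and 3.94 in leaf, 4.29 and 10.7 in root and 1.12 and 8.87 in rhizophore, where the replicates of root and of rhizophore lay apart. The lowest of these were 77680.v1, at 18.4 and 16.4 CPM in shoot and 2.78 to 6.71 CPM elsewhere, and 413909.v1, at 16.0 and 18.5 CPM in shoot and 0.482 to 5.28 CPM elsewhere. Each had its highest value outside shoot in root replicate 2.

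The organ that came next after shoot varied among the members. By mean level it was leaf for 11, root for 14 and rhizophore for 2. In 8 members both leaf libraries lay above all 4 root and rhizophore libraries, and in 2 (Smoe_00038536 and 405683.v1) both lay below them. Over the 23662 models tested, these orders were seen in 13.3% and 16.9%, and the choice itself allowed root and rhizophore to come closer to shoot than leaf. The 8 were 413557.v1, 270395.v1, Smoe_00044417, 105500.v1, 75276.v1, 99001.v1, 96266.v1 and Smoe_00016546. The nearest profiles of 14 members were other members, and 4 pairs were nearest to each other. The closest pair, 75276.v1 and 432605.v1, differed by at most 0.69 on the log2(CPM + 1) scale in any library: 75276.v1 was at 126 and 108 CPM in shoot, 6.89 and 11.6 in leaf, 3.27 and 6.38 in root, and 0.964 and 0.712 in rhizophore, and 432605.v1 was at 78.8 and 76.6, 6.89 and 13.3, 3.40 and 7.02, and 2.17 and 0.712 CPM in the same order.

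In a pair of members the shoot libraries did not give the same level. The model 441720.v1 reached 7408 CPM in shoot replicate 1 and 603 CPM in replicate 2, and 419116.v1 was at 1556 and 127 CPM, ratios of 12.3 and 12.2. Outside the shoot the 2 models differed: 441720.v1 was at 24.5 and 19.9 CPM in leaf, 94.5 and 143 in root, and 9.56 and 36.8 in rhizophore, whereas 419116.v1 was at 0 and 0.701 CPM in leaf, 0.228 and 1.73 in root, and listed at 0 in both rhizophore libraries. Of the 12090 models at 5 CPM or more in both shoot libraries, these 2 alone differed by at least 10 times between them. At a limit of 5 times there were 5 models, all with the higher value in shoot replicate 1, and the other 3 (417263.v1, Smoe_00022101 and 153166.v1, named after their values were seen) were not members. The remaining 25 members differed by at most 2.33 times. The median ratio of the higher to the lower shoot library was 1.30 over the 27 and 1.11 over the 12090, and 12 members were higher in replicate 1 and 15 in replicate 2. Without the 2 library-dependent models the group took 5.98% and 5.83% of shoot counts. The choice used the lower shoot library, so both models passed on their level in replicate 2.

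**Figure D3:**
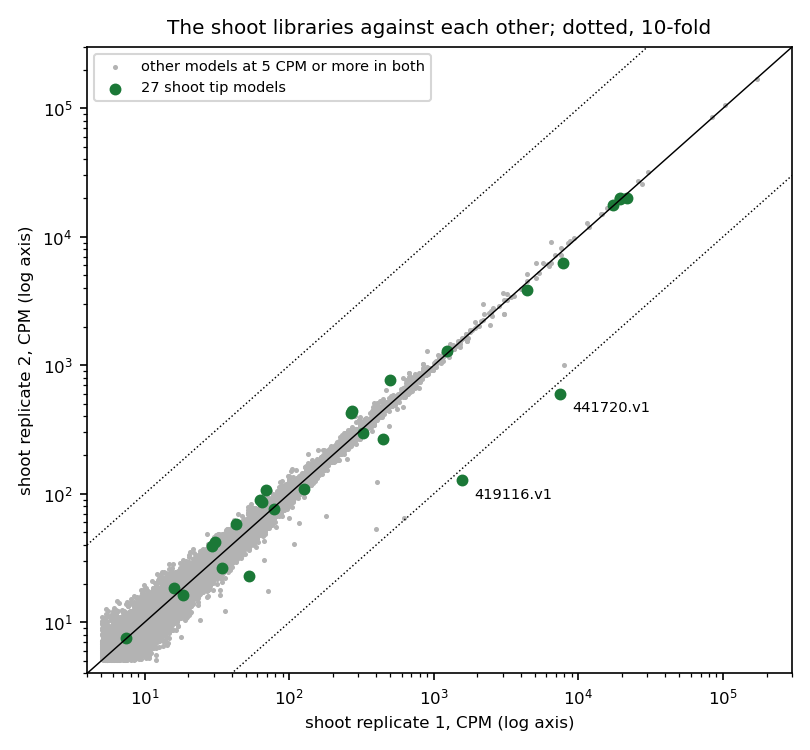
Shoot replicate 1 against shoot replicate 2 in TMM-scaled CPM on log axes, for the 12090 models at 5 CPM or more in both; the solid line marks equal levels and the dotted lines a 10-fold difference. The 27 members (green) follow the line of equal levels except 419116.v1 and 441720.v1, which lie beyond the lower dotted line.

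Root against rhizophore is the comparison that the choice did not direct, since it set 1 limit for the 4 libraries of these organs. Most members were lower in rhizophore than in root: both rhizophore libraries lay below both root libraries in 19 of 27 members and above them in 3, orders seen in 45.8% and 22.9% of the 23662 models tested. In edgeR's quasi-likelihood test on all 8 libraries, with Benjamini-Hochberg adjustment over all models, 12 of the 27 members passed an adjusted p of 0.05 (44.4%; background 36.6%). Of these, 11 were lower in rhizophore (40.7%; background 24.8%) and 1 was higher (3.70%; background 11.8%). The median log2 fold change of the members was -1.34, against -0.50 over all models tested. All 27 members passed the filter on low counts, which each could do through its shoot libraries alone. These shares were not tested against the background.

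The model 105500.v1 was listed at 0 in both rhizophore libraries, so its fitted drop has no bound. Its root mean of 14.1 CPM was at least 39.0-fold higher than a floor of 5 counts per rhizophore library (edgeR adjusted p = 0.000458). Smoe_00044417 had a fitted log2 difference of -5.37 (SE 0.86, edgeR adjusted p = 0.00263), and 413557.v1 gave -5.35 (SE 0.89, edgeR adjusted p = 0.00470). The rhizophore values of both rest on 5 counts in 1 library and a listing at 0 in the other. The model 413298.v1, at 4.36 and 3.55 CPM in root and 0 and 0.324 in rhizophore, differed by -4.46 (SE 1.24, edgeR adjusted p = 0.0381). The model 424289.v1, at 2.08 and 5.63 CPM in root and 0 and 0.324 in rhizophore, differed by -4.43 (SE 1.14, edgeR adjusted p = 0.0270). For both, 5 counts in the library labelled rhizophore replicate 2 again set the rhizophore level, and the fitted size rests on them. With single libraries left out, the smallest fitted drop was -4.58 for Smoe_00044417, -4.38 for 413557.v1, -3.66 for 413298.v1 and -3.59 for 424289.v1. Without the 1 rhizophore library that held their 5 counts, replicate 1 for 413557.v1 and replicate 2 for the other 3, the remaining library was at 0 and the fitted values of -10.3 for 413557.v1, -10.2 for Smoe_00044417, -9.31 for 413298.v1 and -9.30 for 424289.v1 have no bound. The other 6 members called lower in rhizophore (76023.v1, 75276.v1, 432605.v1, 99001.v1, 413909.v1 and 132785.v1) had smaller log2 fold changes, from -1.53 for 76023.v1 to -2.52 for 75276.v1, with edgeR adjusted p from 0.00573 to 0.0496. The call of 76023.v1 and that of 432605.v1 each ended in 10 of the 16 alternatives, that of 413909.v1 in 8, that of 99001.v1 in 4, that of 75276.v1 in 3 and that of 132785.v1 in 2. Among the larger drops, the call of 413298.v1 ended in 6 and that of 424289.v1 in 4. For both, these included the fit to the 4 root and rhizophore libraries alone (edgeR adjusted p = 0.0596 and 0.0717).

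The single member that was higher in rhizophore was 270395.v1, whose fitted log2 difference was 2.76 (SE 0.65, edgeR adjusted p = 0.0152). Its 4 values, 84.3 and 293 CPM in rhizophore and 23.0 and 32.6 CPM in root, did not overlap. The log2 difference ran from 1.48 without rhizophore replicate 2 to 3.31 without rhizophore replicate 1. The model 124285.v1 had a similar fold change of 2.64 but a larger error (SE 1.67, edgeR adjusted p = 0.250), on 0 and 0.289 CPM in root and 0.402 and 1.49 CPM in rhizophore. For 404435.v1 the difference was -0.28 (SE 0.46, edgeR adjusted p = 0.661), and for 3016.v1 it was 0.17 (SE 0.38, edgeR adjusted p = 0.756). The pair 96266.v1 and Smoe_00016546 gave 0.31 (SE 0.60, edgeR adjusted p = 0.719) and 0.53 (SE 0.55, edgeR adjusted p = 0.482).

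**Figure D4:**
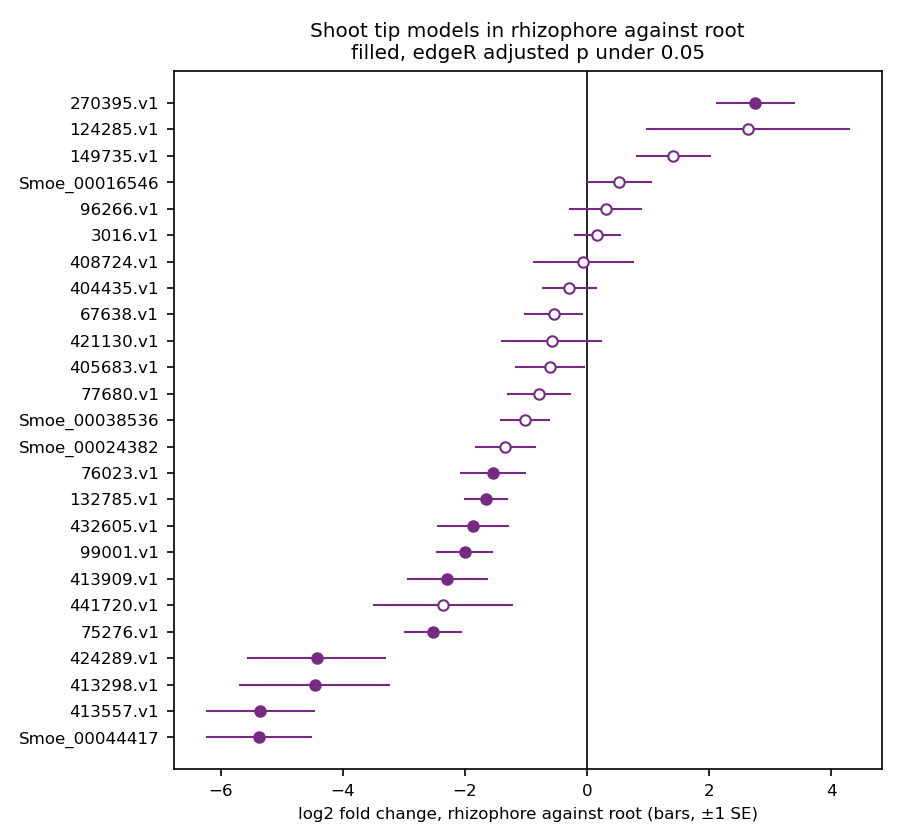
Log2 fold change of rhizophore against root from edgeR for 25 of the 27 members, with bars of 1 standard error; the 2 members listed at 0 in both rhizophore libraries are not drawn, because their fitted size has no bound. Filled points, 10 below 0 and 1 above, have an adjusted p under 0.05.

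These calls depended on how the disputed rhizophore library was labelled. When the library labelled rhizophore replicate 2 was moved to root, as in the authors' averages, 0 of the 27 members were called (384 of all models were), and the fold change of 270395.v1 turned to -0.46 (edgeR adjusted p = 0.879, in a range of 1.4e-22 to 0.879 across the alternatives). The called members 105500.v1 (3.4e-33 to 0.382), Smoe_00044417 (1.4e-16 to 0.162) and 413557.v1 (2.7e-31 to 0.541) lost their edgeR call in that fit and in no other; the ranges in parentheses are adjusted p across the alternatives. All 3 kept a fitted value below 0 there: that of 413557.v1 was -3.70 on the log2 scale, and those of 105500.v1 and Smoe_00044417 have no bound, because the 1 library left as rhizophore listed them at 0. In the library moved to root, rhizophore replicate 2, the values of these 3 members were 0, 0.324 and 0 CPM, below both root libraries. Members were named as lower in rhizophore only where both rhizophore libraries lay below both root libraries. That order was therefore fixed by the naming, and nothing about the label is read from it. The call of 270395.v1 also ended without root replicate 1 or 2 (edgeR adjusted p of 0.181 and 0.115), as did those of 413298.v1 (0.147 and 0.124) and 424289.v1 (0.0738 and 0.158), and that of 413298.v1 without shoot replicate 1 or 2 (0.0561 and 0.0558). Without the library labelled rhizophore replicate 2, 19 members were called, 18 of them lower in rhizophore, while 36% of all models were called. Without root replicate 1 or 2 the counts of members were 5 and 6, and the share of all models fell with them, to 6.76% and 8.12%.

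The choice of members set a lower limit on leaf than on root and rhizophore, so the calls between leaf and these organs are a description of the chosen models, and nothing is read from their shares against the background. Leaf was higher than root in 6 members (22.2%; background 6.66%) and lower in 1 (3.70%; background 3.1%), 7 in all (25.9%; background 9.76%), by the same edgeR test. The 6 were Smoe_00044417, 96266.v1, Smoe_00016546, 105500.v1, 270395.v1 and 99001.v1, and the 1 lower in leaf was Smoe_00038536. Of the 16 alternatives, 6 ended the call of Smoe_00038536, 5 that of 99001.v1 and 3 that of 270395.v1. The calls of Smoe_00044417, 96266.v1 and 105500.v1 each ended in 2, and that of Smoe_00016546 in 1. Leaf was higher than rhizophore in 8 members (29.6%; background 10.6%) and lower in 1 (3.70%; background 9.34%), 9 in all (33.3%; background 20%). The 1 lower in leaf was again Smoe_00038536 (edgeR adjusted p = 0.0443), and its call ended in 10 of the 16 alternatives. The comparisons of leaf with root and with rhizophore share the leaf libraries. The split of directions for leaf against root depended on the fit: without either rhizophore library, 17 members were called, 9 higher and 8 lower in leaf, when 43.5% (without replicate 1) and 42.9% (without replicate 2) of all models were called. For leaf against rhizophore, 12 were higher and 6 lower in leaf without rhizophore replicate 1 (39.7% of all models called), and 16 and 1 without replicate 2 (29.8%).

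Levels in leaf stood far above those in root for some of the abundant models. Smoe_00044417 averaged 1064 CPM in leaf and 7.46 CPM in root, and 96266.v1 averaged 2925 CPM in leaf, 44.8 CPM in root and 55.5 CPM in rhizophore. The model 105500.v1 averaged 512 CPM in leaf, at least 1412-fold above a floor of 5 counts per rhizophore library. Smoe_00038536 was the 1 member called lower in leaf than in root. It stood at 3.14 ± 1.39 CPM in leaf (SD, n = 2) against 18.5 ± 1.26 CPM in root and 9.17 ± 3.16 CPM in rhizophore. Called or not, 14 of the 27 members had a fitted log2 fold change below 0 for leaf against root, and 13 above. For leaf against root the count of members called was 0 without root replicate 1 and 2 without root replicate 2, where 0.337% and 2.21% of all models were called. For leaf against rhizophore it was 0 with the disputed library moved to root, where 0 of all models were called, and 1 with the 4 libraries of these organs alone (0.773% of all models).

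In the authors' deposited table of organ averages, shoot was the highest of the 4 organs for all 27 members, and its average was at least 4 times that of leaf for all 27. These averages come from the same libraries and are no independent evidence. There, the model 404435.v1 averaged 4338 in shoot and 8.31 in leaf, and 419116.v1 averaged 883 and 0.430. The effect of the disputed library could be read in single members. The authors' deposited Root average of 270395.v1 was 166, above both root libraries, and that of 149735.v1 was 39.0, also above both. The authors' deposited Root average exceeded both root libraries for 5 members and lay under both for 13. The authors' scale differs from CPM here: their shoot average of 270395.v1 was 18463, against a mean of 17601 CPM. These 2 counts therefore do not measure the effect of the disputed library alone.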

How the data were processed

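RNA of 4 organs was sequenced as 50 bp single-end reads, per the labels' protocols. The authors deposited raw read counts per gene model for 8 libraries. A second deposited table holds, per the file headers, a normalized signal averaged over the libraries of an organ, made by a method that no source used here states. Bowtie2 and edgeR are named in the submitters' processing notes. Versions, genome build and counter: not given in the sources used here.

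Counts were analysed with edgeR 4.0.16 in R 4.3.3. For the choice of members, TMM factors (0.634 to 1.74) were computed on all 25004 models, and CPM means carry SDs over 2 libraries. For tests, filterByExpr kept 23662 models, and the robust quasi-likelihood test was fitted to all 8 libraries with 1 term per organ, so that organs share a spread. Benjamini-Hochberg adjustment ran over all models tested, with a threshold of 0.05. The standard error is the absolute log2 fold change divided by the square root of F. Folds against an organ at 0 use a floor of 5 counts per library. Weights of the authors' averages are non-negative least squares fits with scipy 1.17.1. The alternatives were DESeq2 1.42.0, limma-voom (limma 3.58.1), other scalings and filters, single libraries left out, the 4 libraries compared alone, another label for rhizophore replicate 2 and a replicate block. The test was also run on simulated counts drawn with the levels and spread of these data, and its outcome is not given here. The models named are the 10 with the best ratio of shoot to the other organs, the 10 highest in shoot, up to 5 called per direction for rhizophore against root, up to 3 per direction for leaf, and the neighbours of each limit, and a few others were named after their values were seen. The members and lists were chosen with earlier results of these data known.

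Functional lists matched no member, because no model name matched the reference table (0 of 25004).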

Additional observations from a re-analysis of the deposited data

How the results depend on the processing

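The number of models meeting the limits was 27. It was 17 with CPM by total counts (all 17 among the 27) and 15 with limits of 8 times leaf and 4 times root and rhizophore. With single libraries left out it was 25 to 45, with 45 without leaf replicate 2 and 29 without leaf replicate 1. TMM factors were lowest in shoot, so scaling decides membership of the 10 members lost without it, which include 441720.v1. For rhizophore against root, 12 members were called; the count was 7 with limma-voom (42.8% of all models called), 0 with rhizophore replicate 2 counted as root (1.55%), 6 with the 4 libraries alone (29.6%), and 5 to 19 with single libraries left out (6.76% to 38.3%). The fold change of 270395.v1 turned to -0.46 with rhizophore replicate 2 counted as root. For leaf against root, 7 were called; the count was 3 with rhizophore replicate 2 counted as root (5.8%) and 0 to 17 with single libraries left out (0.337% to 43.5%). For leaf against rhizophore, 9 were called; the count was 0 with that library counted as root (0 of all models), 1 with the 4 libraries alone (0.773%) and 8 to 18 with single libraries left out (7.82% to 39.7%). For single libraries left out, each range of shares gives the lowest and highest share over those fits. These ends need not come from the fits with the fewest and most members called. The cause of these shifts was not tested. Where leaving out a library leaves an organ with 1, that library is assumed to vary like the other organs. Same-numbered libraries showed no broad common shift: their deviations correlated by -0.0147 to 0.0706 over 6 organ pairs. A pairing that moves few models could be missed by this check, and the labels do not state one. With the replicate block the counts of members were 10, 7 and 8, where 15.8%, 7.3% and 17.1% of all models were called. Depth limits leaf most, where 5 counts in replicate 1 are 2.15 CPM.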
